A study of Mus musculus with 15 samples.

Results

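Described here are the laminins, the proteins that tie laminin networks together, the integrins that bind them and the adaptors on the integrins' inner face. They form a set of 38 genes out of 30672 genes in the count table. The genes were listed by name, with earlier results of these data known. They comprise 9 laminin chains, 4 basement membrane linkers, 12 integrin alpha chains, 6 integrin beta chains and 7 cytoplasmic adaptors. Collagens and *Lamb3* are not part of the set. RNA was sequenced from the tibialis anterior, a fast muscle of the lower leg, of 15 male 129Pas mice aged 7 weeks. The groups were WT without treatment (n = 4), WT given tamoxifen (WT + TAM, n = 4), *Mtm1*-/y without treatment (Mtm1-/y, n = 4) and *Mtm1*-/y given tamoxifen (Mtm1-/y + TAM, n = 3). Mtm1-/y males carry no functional allele of *Mtm1*, the X-linked gene that encodes the lipid phosphatase myotubularin, throughout the body, and they serve as a model of X-linked myotubular myopathy. Tamoxifen binds oestrogen receptors, and its dose, route and duration were not given in the sources used here.

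Muscle fibres are wrapped in a basement membrane built on laminin, a trimer of an alpha, a beta and a gamma chain. Nidogens, perlecan and agrin link the laminin network to collagen IV and to the cell surface. Integrins are dimers of an alpha and a beta chain that grip the matrix outside and, through talin, kindlin, vinculin and the complex of integrin-linked kinase with parvin, the actin cytoskeleton inside. In adult fibres the laminin with the alpha 2 chain (*Lama2*) and the receptor made of *Itga7* and *Itgb1* form a main attachment, and loss of *LAMA2* or *ITGA7* causes muscular dystrophy or myopathy in people. Blood vessels have basement membranes of their own, in which laminins with the alpha 4 and alpha 5 chains prevail.

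*Mtm1* itself was at 14.9 to 15.6 CPM (read counts scaled to a common library total) in WT, 13.5 to 17.7 CPM in WT + TAM, 2.91 to 3.63 CPM in Mtm1-/y and 3.04 to 3.71 CPM in Mtm1-/y + TAM, so every library matched its genotype label. Total counts per library ranged from 18042558 to 45823277. The 7 markers of the muscle fibre summed to between 89100 and 152000 CPM in each of the 15 libraries. Across genes, WT + TAM replicate 1 correlated with the other libraries of its group at r = 0.964 to 0.966 and Mtm1-/y replicate 1 at r = 0.961 to 0.97, where all other pairs within groups had r of 0.981 to 0.99. A call that was gained or lost without one or both of these 2 libraries is named beside the member's values.

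Of the 38 members, 37 passed the filter on low counts. *Lama1*, a laminin chain of embryonic basement membranes, did not, with 0 to 0.235 CPM. A member was called when its adjusted p, over all 15533 genes tested with edgeR, was under 0.05. In Mtm1-/y against WT 19 members were called (51.4% of 37), 7 higher and 12 lower, where 30.4% of all tested genes were called, 15.5% higher and 14.9% lower. The median log2 fold change of the members was -0.33, and that of all genes 0.00. For 6 members every Mtm1-/y library lay above every WT library, and for 11 every one lay below, where the groups did not overlap for 30.5% of all tested genes. With library size alone as the scale, which moves the median of all genes by 0.15, the split of the members was 9 higher and 8 lower, against 3654 higher and 1429 lower over all genes. Without Mtm1-/y replicate 1 the split of the members was 5 higher and 10 lower, against 2291 higher and 2233 lower over all genes. Without both libraries that stand apart it was 6 higher and 10 lower, against 2619 higher and 2638 lower over all genes. In Mtm1-/y + TAM against WT + TAM 14 members were called (37.8% of 37), 5 higher and 9 lower, against 20.1% of all tested genes, 10.6% higher and 9.46% lower. Here 7 members lay wholly above and 10 wholly below, with 31.6% of all genes not overlapping. With library size alone the split of the members was 6 higher and 5 lower, against 2685 higher and 783 lower over all genes. With WT + TAM replicate 1 left out the split of the members was 4 higher and 8 lower, against 1722 higher and 1617 lower over all genes. Without both libraries that stand apart it was 7 higher and 11 lower, against 2324 higher and 2276 lower over all genes. The 2 genotype comparisons use different libraries, although they share the estimate of the spread. Both called 12 members, which are 63.2% of the untreated and 85.7% of the treated calls, and all 12 had the same direction. The same overlap over all tested genes is not given here, so these shares are not shown to be particular to the set.

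**Figure D1:**
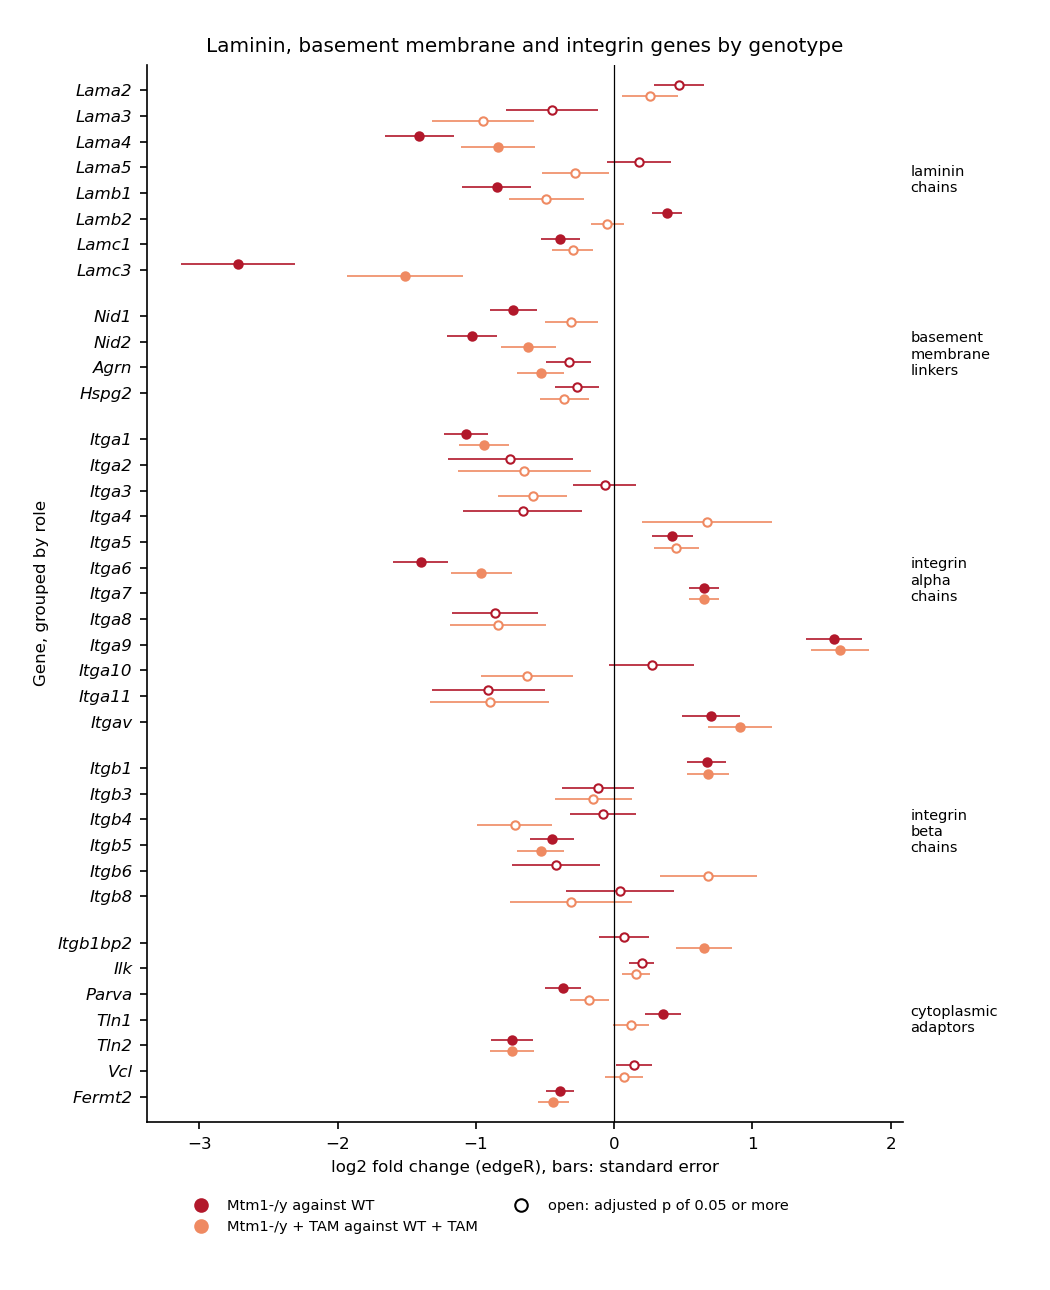
Log2 fold change of the 37 tested members, by role, for Mtm1-/y against WT (dark red) and Mtm1-/y + TAM against WT + TAM (orange), with standard errors as bars; open points were not called. *Itga9* lies farthest to the right (1.59 and 1.63) and *Lamc3* farthest to the left (-2.72 and -1.51).

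To show the sequence in front of members that moved, the 250 bases before the transcription start of 4 of them were read from RefSeq on GRCm38.p6. *Itgb1*, *Itgav* and *Itga5* rose in Mtm1-/y and *Itga1* fell. A promoter was given for 25 of the 38 members, and none for *Lama1*, *Lama3*, *Lama4*, *Lamc1*, *Lamc3*, *Nid2*, *Itga6*, *Itga7*, *Itgb3*, *Itgb4*, *Itgb1bp2*, *Parva* and *Tln2*. They were searched on both strands for CAGCTG (the E-box that myogenic factors bind), TGANTCA (the AP-1 site), GGAATG (the core of the TEAD site) and GGGCGG (the GC box), and matches are in capitals, as written on the gene's strand. No match overlaps another in the 4 sequences. *Itgb1* lies on the plus strand (chr8:128685404-128685653), *Itgav* on the plus strand (chr2:83724147-83724396), *Itga5* on the minus strand (chr15:103366792-103367041) and *Itga1* on the minus strand (chr13:115101965-115102214).
Itgb1: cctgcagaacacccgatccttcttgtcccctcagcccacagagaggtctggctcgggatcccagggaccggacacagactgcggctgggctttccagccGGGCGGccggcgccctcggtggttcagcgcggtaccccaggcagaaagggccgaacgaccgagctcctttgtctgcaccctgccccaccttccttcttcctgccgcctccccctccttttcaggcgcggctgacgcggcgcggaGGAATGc
Itgav: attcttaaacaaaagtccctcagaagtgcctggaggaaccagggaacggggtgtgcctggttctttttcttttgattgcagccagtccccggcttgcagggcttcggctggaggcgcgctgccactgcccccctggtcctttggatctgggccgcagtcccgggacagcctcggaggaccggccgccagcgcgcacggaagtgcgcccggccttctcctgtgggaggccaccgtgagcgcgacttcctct
Itga5: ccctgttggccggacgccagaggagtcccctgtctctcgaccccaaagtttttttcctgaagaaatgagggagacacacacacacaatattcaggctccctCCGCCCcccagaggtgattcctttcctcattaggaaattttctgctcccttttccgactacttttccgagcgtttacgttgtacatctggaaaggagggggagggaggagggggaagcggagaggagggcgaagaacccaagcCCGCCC
Itga1: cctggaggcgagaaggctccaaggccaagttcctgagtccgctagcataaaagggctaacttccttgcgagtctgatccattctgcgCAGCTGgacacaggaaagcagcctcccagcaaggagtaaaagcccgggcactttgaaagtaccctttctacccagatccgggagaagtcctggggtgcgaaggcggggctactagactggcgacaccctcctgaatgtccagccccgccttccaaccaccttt

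GGGCGG was present in 13 of the 25 members with a promoter and in 32.7% of all 32851 promoters cut to the same length. CAGCTG was present in 4 members and 13% of promoters, GGAATG in 4 members and 12.6% of promoters, and TGANTCA in 0 members and 6.75% of promoters. A member counts here when any of its listed promoters holds the letters. Among members called higher in Mtm1-/y with a promoter given, 2 of 6 held GGGCGG, and among those called lower 4 of 5. CAGCTG was present in 2 of the 5 lower members and 1 of the 6 higher ones, *Itga9*, whose only listed promoter starts 105002 bases from the start of the gene in GENCODE.

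Of the 8 laminin chains tested, 1 rose and 4 fell in Mtm1-/y against WT (62.5% called, against 30.4% of all tested genes). In Mtm1-/y + TAM against WT + TAM 0 rose and 2 fell (25% called, against 20.1% of all tested genes). *Lama2*, the alpha chain of the fibre's own laminin, had 39.4, 44.3, 46.1 and 45.2 CPM in WT and, in Mtm1-/y, 70.4, 57.9, 49.9 and 63.4 CPM. All 4 Mtm1-/y libraries lay above all 4 WT libraries, but the difference (log2 fold change 0.47 ± 0.18 SE) did not pass over all genes (adjusted p = 0.0649). It passed with DESeq2 (adjusted p = 0.0439), with library size alone (adjusted p = 0.034), with only WT and Mtm1-/y in the fit (adjusted p = 0.0141) and without replicate 1 of WT + TAM (adjusted p = 0.0221), WT + TAM replicate 3 (adjusted p = 0.0304) or Mtm1-/y replicate 3 (adjusted p = 0.0397). Under tamoxifen the values were 63.1, 36, 30 and 50.5 CPM in WT + TAM and 50.6, 61.1 and 49.6 CPM in Mtm1-/y + TAM, which overlap, with a log2 fold change of 0.26 ± 0.20 and an adjusted p of 0.381. Without both libraries that stand apart it was 0.47, with an adjusted p of 0.035.

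*Lamb2*, the beta 2 chain, which is concentrated at the neuromuscular junction, was the laminin chain that rose. WT held 265, 320, 248 and 291 CPM and Mtm1-/y 336, 355, 421 and 348 CPM, without overlap (0.38 ± 0.11, adjusted p = 0.02). The call was lost without WT replicate 1 or 3 (adjusted p up to 0.0648). Under tamoxifen WT + TAM had 275, 313, 304 and 358 CPM and Mtm1-/y + TAM 278, 331 and 296 CPM, and the difference was -0.05 ± 0.12 (adjusted p = 0.813).

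*Lamb1*, the beta 1 chain found in most basement membranes, went the other way. The WT libraries held 31.8, 39.4, 48.3 and 49.2 CPM and the Mtm1-/y libraries 15.8, 26.4, 22.9 and 28.5 CPM (-0.85 ± 0.25, adjusted p = 0.018). No Mtm1-/y library reached the lowest WT library. The call was lost without WT replicate 4 (adjusted p = 0.051), without both libraries that stand apart, with library size alone and without the filter on low counts. Tamoxifen-treated mice had 33.1, 57.3, 31.7 and 36.2 CPM (WT + TAM) against 20.4, 38.7 and 25.3 CPM (Mtm1-/y + TAM), with overlap (-0.49 ± 0.27, adjusted p = 0.218).

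*Lamc1*, the gamma chain shared by most laminins, had 152, 168, 163 and 170 CPM in WT and, in Mtm1-/y, 103, 146, 108 and 143 CPM. The groups did not overlap, and the fall was small (-0.39 ± 0.14, adjusted p = 0.0469). It was no longer called without any of WT replicates 1 to 4, WT + TAM replicates 2 to 4, Mtm1-/y replicates 1 and 3 and Mtm1-/y + TAM replicate 3 (adjusted p up to 0.144), nor with RLE factors, library size alone, no filter or only the 2 groups in the fit, nor without both libraries that stand apart. WT + TAM had 165, 162, 134 and 141 CPM and Mtm1-/y + TAM 104, 153 and 108 CPM (-0.30 ± 0.15, adjusted p = 0.173), and this difference passed without Mtm1-/y + TAM replicate 2 (-0.50, adjusted p = 0.0458).

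The largest fall of any member was in *Lamc3*, which encodes the gamma 3 chain, but it rests on few reads. WT libraries had 1.18, 2.61, 1.37 and 2.14 CPM, from 31 to 73 counts, and Mtm1-/y libraries 0.209, 0.282, 0.127 and 0.448 CPM, from 4 to 20 counts. The log2 fold change was -2.72 ± 0.41 (adjusted p = 0.000255). In WT + TAM the levels were 1.55, 2.24, 1.09 and 2.02 CPM and in Mtm1-/y + TAM 0.265, 0.821 and 0.629 CPM (-1.51 ± 0.42, adjusted p = 0.0206), again without overlap. The second call was lost without WT + TAM replicate 2 or Mtm1-/y + TAM replicates 1 or 3 (adjusted p up to 0.0787).

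*Lama4*, the alpha chain of vessel laminin, fell in both comparisons. It had 33.9, 38.4, 45.5 and 47.2 CPM in WT and, in Mtm1-/y, 7.98, 17.9, 15.2 and 20.9 CPM (-1.41 ± 0.25, adjusted p = 0.000959), and no library of one group reached the other. Without each library in turn, the value stayed between -1.6 and -1.19 and was called each time. In WT + TAM it had 30.7, 44.5, 27.9 and 26.5 CPM and in Mtm1-/y + TAM 14.5, 21.2 and 18.3 CPM (-0.84 ± 0.27, adjusted p = 0.0416). That call was lost without WT replicate 2 or 3, WT + TAM replicate 1, 2 or 3, Mtm1-/y replicate 3 or any of the Mtm1-/y + TAM replicates (adjusted p up to 0.146), with library size alone and without the filter.

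The other 2 alpha chains tested were not called. *Lama5*, which is also a vessel laminin chain, averaged 71.8 ± 8.17 CPM over the WT libraries and 81.5 ± 35.3 CPM over the Mtm1-/y libraries (SD, n = 4 each), where replicate 1 alone was at 134 CPM (0.18 ± 0.23, adjusted p = 0.571). With that replicate left out the *Lama5* value was -0.17 ± 0.14 (adjusted p = 0.413), so its direction turned. *Lama3*, a chain known from epithelia, averaged 6.16 ± 0.47 CPM over WT and 4.49 ± 2.72 CPM over Mtm1-/y libraries (SD, n = 4 each), with an adjusted p of 0.324, and under tamoxifen a log2 fold change of -0.95 ± 0.37 (adjusted p = 0.0809). The treated *Lama3* difference was called without Mtm1-/y replicate 1 (adjusted p = 0.0344) and without both libraries that stand apart (-1.01, adjusted p = 0.033).

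**Figure D2:**
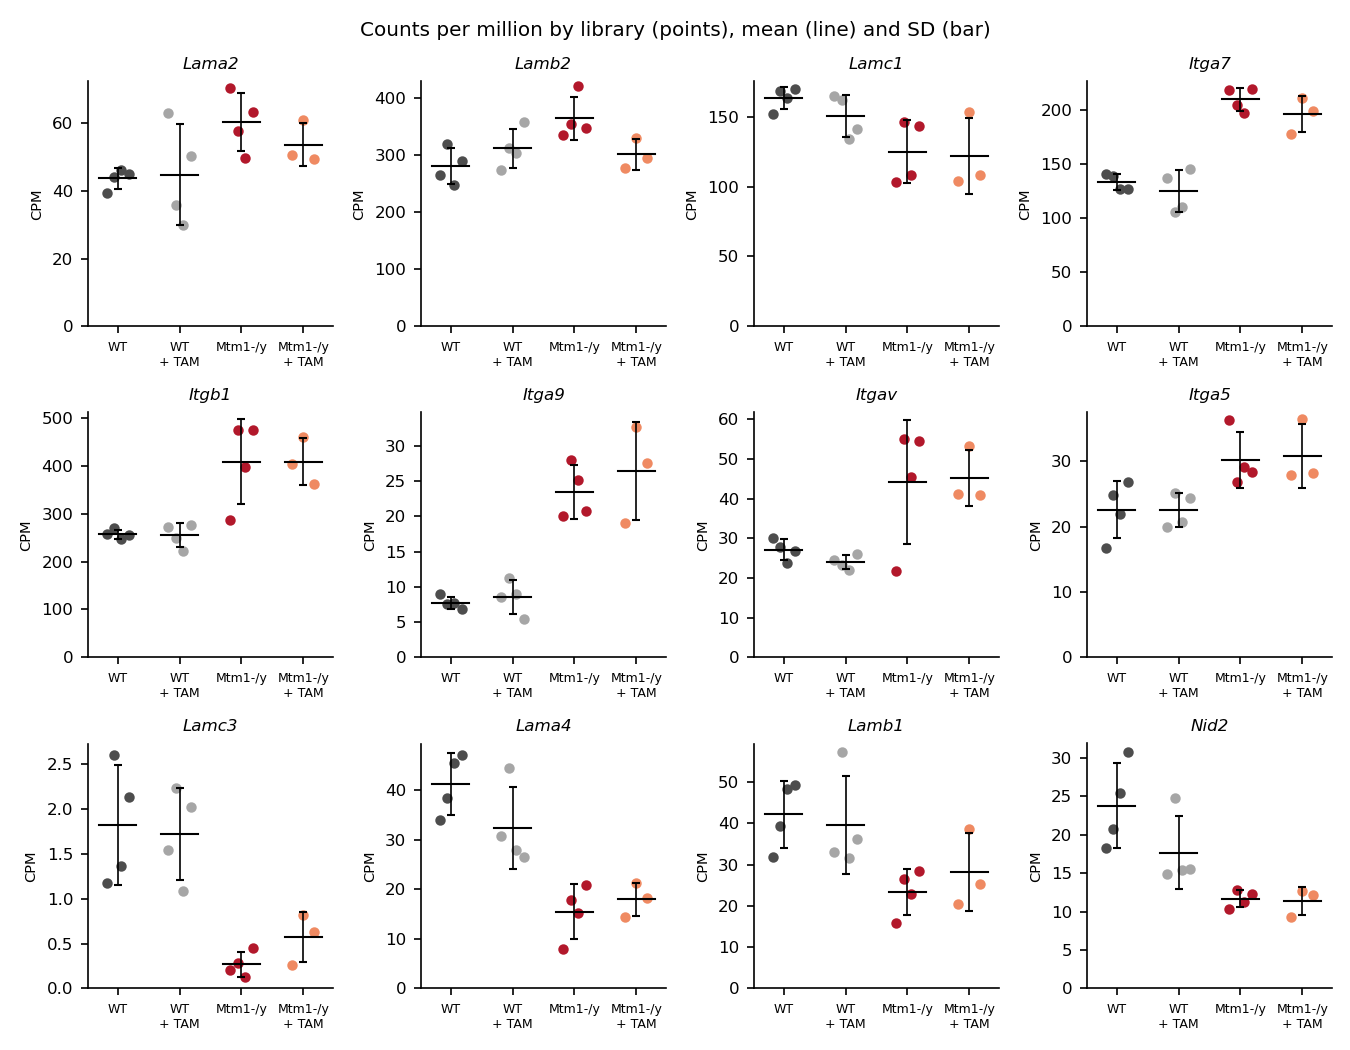
CPM of 12 members in each of the 15 libraries (points), with the group mean (line) and SD (bar). The *Itga9* points of Mtm1-/y and Mtm1-/y + TAM (19 to 32.7 CPM) all lie above those of WT and WT + TAM (5.41 to 11.3 CPM), and the *Lamc3* and *Lama4* points of the mutant groups lie below those of the matching WT groups.

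To compare chains with each other, counts were divided by the union exon length of each gene, and each chain was given as a share of its family within a library. Shares are parts of a fixed whole, so a lower share of one chain raises the others. Among alpha chains *Lama5* had the highest mean share in every group on this length (48.6% ± 4.24 in WT, SD, n = 4, and 55.4% ± 8.75 in Mtm1-/y, SD, n = 4). *Lama4* held 26.3% ± 3.09 in WT and 11.2% ± 5.22 in Mtm1-/y, and *Lama2* held 20.7% ± 1.49 in WT and 30.1% ± 4.78 in Mtm1-/y (SD, n = 4 each). The ranges were 23% to 30.1% against 3.78% to 15.7% for *Lama4* and 19.3% to 22.6% against 24.7% to 35.2% for *Lama2*, so neither overlapped. *Lama2* thus stood below *Lama4* in mean share in WT and above it in Mtm1-/y. The order at the top depended on the length used. With the longest transcript of each gene as the length, *Lama4* came first in WT, at 37.2% ± 3.4, ahead of *Lama5* at 34.6% ± 3.9 and *Lama2* at 25% ± 1.35 (SD, n = 4 each), with the first 2 overlapping. In Mtm1-/y that length gave 42.3% ± 9.61 for *Lama5*, 38.5% ± 3.82 for *Lama2* and 16.5% ± 7.15 for *Lama4* (SD, n = 4 each), so *Lama4* was lower than in WT and *Lama2* higher on both lengths. Under tamoxifen the *Lama4* share was 20.1% ± 4.73 in WT + TAM (SD, n = 4) and 13.5% ± 2.9 in Mtm1-/y + TAM (SD, n = 3), with ranges of 16.8% to 27% and 11% to 16.7%. The *Lama2* shares of the treated groups were 20.8% ± 7.24 and 29.9% ± 5.12, and their ranges (13.4% to 29% and 25.6% to 35.6%) overlapped. Of the 2 beta chains *Lamb2* held 91.5% ± 1.86 in WT and 96.2% ± 0.933 in Mtm1-/y (SD, n = 4 each), with ranges of 89.3% to 93.2% and 95.2% to 97.2%.

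**Figure D3:**
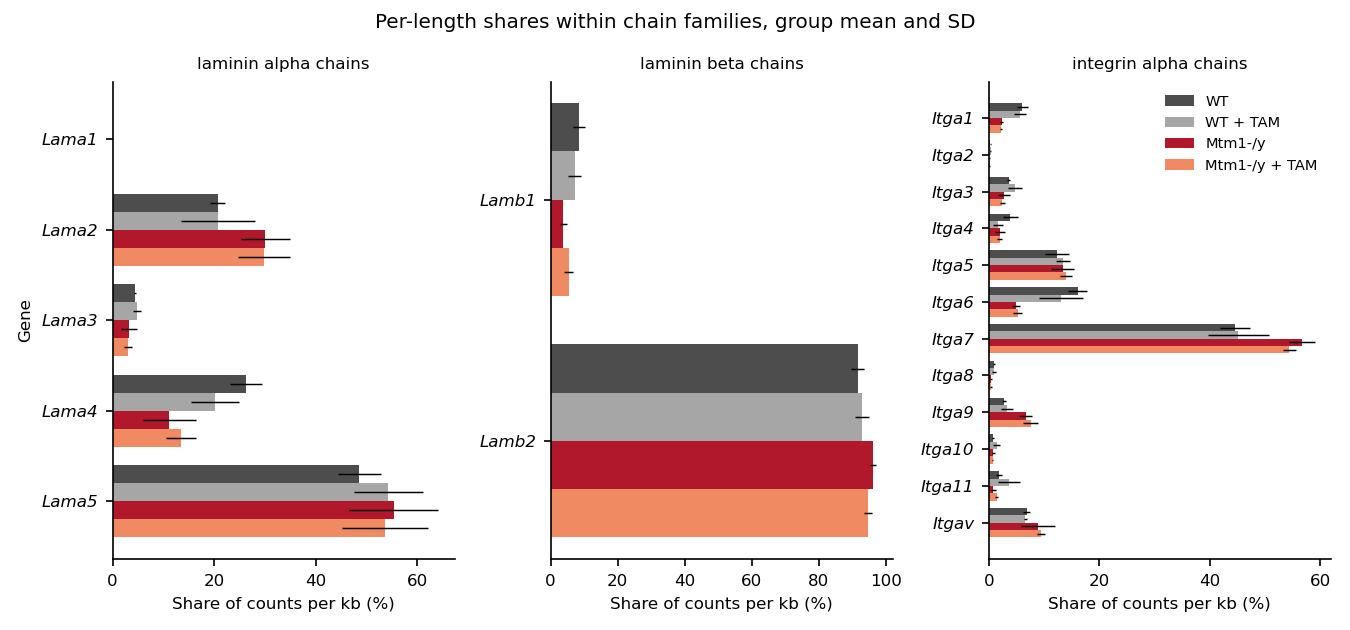
Share of each chain (%) among the laminin alpha, laminin beta and integrin alpha chains, from counts per kilobase of exon, as group mean with SD (n = 4, 4, 4 and 3). In mean share *Lama4* was at 26.3% in WT and 11.2% in Mtm1-/y, *Itga6* at 16.1% and 4.92%, and *Itga7* at 44.5% and 56.7%.

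Of the 4 linkers between laminin and the rest of the basement membrane 0 rose and 2 fell in Mtm1-/y against WT. That is 50% called, against 30.4% of all tested genes, of which 15.5% were called higher. In the treated comparison 0 rose and 2 fell (50%), against 20.1% of all tested genes, of which 10.6% were called higher. *Nid2*, a nidogen, had 18.3, 20.7, 25.4 and 30.8 CPM in WT and, in Mtm1-/y, 10.3, 12.8, 11.3 and 12.3 CPM (-1.03 ± 0.18, adjusted p = 0.000827). The values of the treated groups were 14.9, 24.8, 15.4 and 15.5 CPM in WT + TAM and 9.33, 12.7 and 12.2 CPM in Mtm1-/y + TAM (-0.62 ± 0.20, adjusted p = 0.0398), and neither pair of groups overlapped. The treated call was lost without WT replicate 3, WT + TAM replicate 2, Mtm1-/y replicate 3 or any Mtm1-/y + TAM replicate (adjusted p up to 0.152), with library size alone, no filter, limma-voom and only the 2 groups in the fit. Part of the *Nid2* exons (8.4%) overlaps *Rtraf* on the other strand.

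*Nid1*, the main nidogen, fell in Mtm1-/y (from 86.2 to 115 CPM in WT against 41.4 to 73.5 CPM, -0.73 ± 0.17, adjusted p = 0.00569) and was called without each library in turn. It was not called under tamoxifen (-0.31 ± 0.19, adjusted p = 0.267). *Agrn* encodes agrin, a laminin-binding protein whose nerve-derived form organises acetylcholine receptors. It was called in the treated comparison (-0.53 ± 0.17, adjusted p = 0.0416) and not in the untreated one (-0.33 ± 0.16, adjusted p = 0.125), where it was called with Mtm1-/y replicate 1 left out (-0.52, adjusted p = 0.00714) and without both libraries that stand apart (adjusted p = 0.00488). The *Agrn* call was lost without WT replicate 2 or 3, WT + TAM replicate 2 or 3 or Mtm1-/y + TAM replicate 1 or 2 (adjusted p up to 0.137) and with library size alone. *Hspg2*, which encodes perlecan, was not called in either (-0.27 ± 0.16 and -0.36 ± 0.18), but the treated difference was called without both libraries that stand apart (-0.42, adjusted p = 0.0263).

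Among the 12 integrin alpha chains 4 rose, 2 fell and 6 were not called in Mtm1-/y against WT (50% called, against 30.4% of all tested genes). In the treated comparison 3 rose and 2 fell (41.7% called, against 20.1% of all tested genes). *Itga7*, the laminin receptor chain of muscle fibres, was at 141, 139, 127 and 127 CPM in WT and, in Mtm1-/y, 218, 204, 197 and 219 CPM. Every mutant library was above every WT library (0.65 ± 0.11, adjusted p = 0.000429). With tamoxifen the levels were 137, 106, 110 and 145 CPM in WT + TAM and 178, 211 and 199 CPM in Mtm1-/y + TAM, again apart (0.65 ± 0.11, adjusted p = 0.00124). Both calls held without each library in turn, with values of 0.63 to 0.7 and 0.58 to 0.73. Per length, *Itga7* was the highest of the alpha chains in every group, at 16.5 ± 0.934 CPM per kb in WT and 25.9 ± 1.33 CPM per kb in Mtm1-/y (SD, n = 4 each). Its share among alpha chains was 41.6% to 47.9% over the WT libraries and 54.8% to 59.8% over the Mtm1-/y libraries.

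*Itga9*, whose product pairs with the beta 1 chain and binds tenascin C and osteopontin, had the largest rise. It was at 8.95, 7.51, 7.66 and 6.89 CPM in WT and, in Mtm1-/y, 20, 28, 25.2 and 20.7 CPM, a 3.02-fold difference (1.59 ± 0.20, adjusted p = 6.98e-05). WT + TAM had 8.5, 11.3, 9.02 and 5.41 CPM and Mtm1-/y + TAM 19, 32.7 and 27.5 CPM, a 3.1-fold difference (1.63 ± 0.21, adjusted p = 0.000139). The groups were apart in both comparisons, and both calls held without each library in turn.

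*Itgav*, the chain of vitronectin and fibronectin receptors, had 30.1, 27.8, 23.8 and 26.8 CPM in WT and, in Mtm1-/y, 21.7, 55, 45.5 and 54.5 CPM (0.70 ± 0.21, adjusted p = 0.0226). The groups overlapped through Mtm1-/y replicate 1, which lay below every WT library while the other 3 lay above. Without that replicate the rise was 0.93, and the call was lost without WT replicate 3 or 4 or Mtm1-/y replicate 2 or 4 (adjusted p up to 0.0696), with no filter, with limma-voom and with only the 2 groups in the fit. In the treated groups all 3 Mtm1-/y + TAM libraries (41.1, 53.2 and 41 CPM) lay above WT + TAM (24.6, 23.3, 22 and 26 CPM), with 0.91 ± 0.23 and an adjusted p of 0.0125. This call was lost without Mtm1-/y + TAM replicate 2 (adjusted p = 0.0687).

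*Itga5*, the fibronectin receptor chain, was at 16.8, 24.8, 22 and 26.9 CPM in WT and, in Mtm1-/y, 36.4, 26.9, 29.2 and 28.3 CPM. The groups met at 26.9 CPM to 3 digits and were scored as overlapping (0.42 ± 0.15, adjusted p = 0.0406). The call was lost without WT replicate 1, 2 or 3 or Mtm1-/y replicate 1 (adjusted p up to 0.124), without both libraries that stand apart, with upper-quartile factors and with only the 2 groups in the fit. WT + TAM held 20, 25.1, 20.7 and 24.4 CPM and Mtm1-/y + TAM 27.9, 36.5 and 28.2 CPM, without overlap but not called (0.45 ± 0.16, adjusted p = 0.052). It was called without Mtm1-/y replicate 1 (0.46, adjusted p = 0.028).

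*Itga6*, a laminin receptor chain of endothelium and other cells, fell. Its levels were 45, 53.7, 57 and 58.8 CPM in WT and, in Mtm1-/y, 17.5, 18.2, 20.2 and 25.3 CPM (-1.40 ± 0.20, adjusted p = 0.000221), with a wide gap between the groups. In WT + TAM they were 21.5, 45.8, 47 and 47.3 CPM, and in Mtm1-/y + TAM 21.6, 19 and 21.8 CPM (-0.96 ± 0.22, adjusted p = 0.00798). WT + TAM replicate 1 alone made the treated groups overlap. That library also had the lowest summed level of endothelial markers in its group (406 CPM), and its part in the value was not tested beyond leaving it out. Both calls held without each library in turn, at -1.52 to -1.33 and -1.17 to -0.88. The share of *Itga6* among alpha chains was 13.7% to 17.5% in WT and 4.31% to 5.89% in Mtm1-/y.

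*Itga1*, a collagen and laminin receptor chain, also fell in both. It was at 31.9, 42, 46.2 and 47.6 CPM in WT and, in Mtm1-/y, 17.8, 20.9, 17.4 and 23.7 CPM (-1.07 ± 0.16, adjusted p = 0.000231). WT + TAM had 25, 38.5, 36.5 and 42.6 CPM and Mtm1-/y + TAM 17.1, 19.1 and 19.7 CPM (-0.94 ± 0.18, adjusted p = 0.00209). No mutant library reached its WT counterparts, and both calls held without each library in turn.

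The 6 alpha chains not called in Mtm1-/y against WT were *Itga2*, *Itga3*, *Itga4*, *Itga8*, *Itga10* and *Itga11*. *Itga8* was closest to the threshold (-0.86 ± 0.31, adjusted p = 0.0502), and the others ranged from -0.91 for *Itga11* (adjusted p = 0.109) to 0.27 for *Itga10* (adjusted p = 0.544). *Itga8* was called there under 8 alternatives. They include DESeq2 (adjusted p = 0.0325), limma-voom (adjusted p = 0.0259) and the fit without WT + TAM replicate 1 (adjusted p = 0.0309). It was not called without Mtm1-/y replicate 1 (-0.70, adjusted p = 0.117). In the treated comparison *Itga8* was at -0.84 ± 0.35 (adjusted p = 0.104), with no overlap of the groups. *Itga3*, at -0.07 in Mtm1-/y against WT, was called there without both libraries that stand apart (-0.38, adjusted p = 0.0211). Its treated difference of -0.59 (adjusted p = 0.108) was called without Mtm1-/y replicate 1 (adjusted p = 0.025), without WT + TAM replicate 1 (-0.76, adjusted p = 0.0258) and without both (adjusted p = 0.000404). *Itga10* shares 33.5% of its exons with *Gm42957* on the same strand.

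Of the 6 integrin beta chains 2 were called in Mtm1-/y against WT (33.3%, where 30.4% of all tested genes were called), 1 higher and 1 lower. The treated comparison also called 1 higher and 1 lower (33.3%, where 20.1% of all tested genes were called). *Itgb1*, the partner of *Itga7* and of most alpha chains in the set, rose. It had 257, 270, 247 and 256 CPM in WT and, in Mtm1-/y, 288, 476, 398 and 475 CPM (0.67 ± 0.14, adjusted p = 0.00251), and 272, 250, 223 and 277 CPM in WT + TAM and 404, 460 and 362 CPM in Mtm1-/y + TAM (0.68 ± 0.15, adjusted p = 0.00561). Mtm1-/y replicate 1 was nearest to WT, yet the groups did not overlap in either comparison, and both calls held without each library in turn, with values of 0.59 to 0.81 and 0.59 to 0.76. Per length, *Itgb1* was the highest of the beta chains in every group, at 63.1 ± 2.29 CPM per kb in WT (SD, n = 4).

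*Itgb5*, a partner of *Itgav*, fell in both comparisons although the groups overlapped (-0.45 ± 0.16, adjusted p = 0.0409, and -0.53 ± 0.17, adjusted p = 0.0403). The untreated call was lost without WT replicate 2, 3 or 4, WT + TAM replicate 3, Mtm1-/y replicate 1, 2 or 3 or Mtm1-/y + TAM replicate 3 (adjusted p up to 0.129), with RLE factors, library size alone and no filter, and without both libraries that stand apart. The treated call was lost without WT replicate 2 or 4, WT + TAM replicate 1, 3 or 4 or any Mtm1-/y + TAM replicate (adjusted p up to 0.169), with library size alone, limma-voom and only the 2 groups in the fit, and without both libraries that stand apart. *Itgb3*, *Itgb4*, *Itgb6* and *Itgb8* had log2 fold changes of -0.42 to 0.04 in Mtm1-/y against WT and were not called in either comparison. In the treated comparison they ranged from -0.72 ± 0.27 for *Itgb4* (adjusted p = 0.0698) to 0.68 ± 0.35 for *Itgb6* (adjusted p = 0.187). The treated *Itgb6* groups did not overlap. The treated *Itgb4* difference was called with DESeq2 (adjusted p = 0.0416) and without WT + TAM replicate 4 (adjusted p = 0.0407). *Itgb6* was called in the treated comparison without both libraries that stand apart (0.89, adjusted p = 0.0156).

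Of the 7 adaptors 1 rose and 3 fell in Mtm1-/y against WT (57.1% called, against 30.4% of all tested genes). Under tamoxifen 1 rose and 2 fell (42.9% called, against 20.1% of all tested genes). The 2 talins, which switch integrins on and tie them to actin, moved in opposite directions. *Tln2*, the talin of striated muscle, fell from 144 to 220 CPM over WT to 88.9 to 142 CPM over Mtm1-/y (-0.74 ± 0.15, adjusted p = 0.00195) and from 154 to 207 CPM in WT + TAM to 102 to 114 CPM in Mtm1-/y + TAM (-0.74 ± 0.16, adjusted p = 0.00534). Both *Tln2* calls held without each library in turn. *Tln1*, the widely expressed talin, rose from 192 to 209 CPM to 232 to 277 CPM in Mtm1-/y (0.35 ± 0.13, adjusted p = 0.0447) and was not called under tamoxifen (0.12 ± 0.13, adjusted p = 0.58, and -0.01 without WT + TAM replicate 1). The *Tln1* call was lost without any of WT replicates 1 to 4, WT + TAM replicates 2 and 3, Mtm1-/y replicates 1, 2 and 4 and Mtm1-/y + TAM replicate 1 (adjusted p up to 0.104), with upper-quartile factors and with limma-voom.

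*Fermt2*, which encodes kindlin-2, the talin co-activator, fell in both comparisons (-0.39 ± 0.10, adjusted p = 0.0104, and -0.44 ± 0.11, adjusted p = 0.0125), without overlap of the groups. The treated *Fermt2* call was lost without Mtm1-/y + TAM replicate 2 or 3 (adjusted p up to 0.055). *Parva*, the parvin that binds integrin-linked kinase, was called in Mtm1-/y against WT (-0.37 ± 0.13, adjusted p = 0.0336) and not under tamoxifen (-0.18 ± 0.14, adjusted p = 0.376). The *Parva* call was lost without WT replicate 2 or 4 or Mtm1-/y replicate 1 or 3 (adjusted p up to 0.09), without both libraries that stand apart, with library size alone and with no filter. *Itgb1bp2* encodes melusin, a muscle protein that binds the tail of the beta 1 chain. It was not called in Mtm1-/y against WT (0.07 ± 0.18, adjusted p = 0.804), where replicate 1 was at 135 CPM and the others at 208 to 292 CPM. With that replicate left out the *Itgb1bp2* value was 0.25 ± 0.13 (adjusted p = 0.164). In Mtm1-/y + TAM against WT + TAM it rose, from 165 to 231 CPM to 271 to 329 CPM (0.65 ± 0.20, adjusted p = 0.0281). That call was lost without WT + TAM replicate 1, 3 or 4 or Mtm1-/y + TAM replicate 2 or 3 (adjusted p up to 0.112). *Ilk* and *Vcl* were not called (0.20 ± 0.09 and 0.14 ± 0.13 in Mtm1-/y against WT). Exons of *Ilk* overlap *Taf10* on the other strand over 76.7% of their length and those of *Vcl* overlap *Ap3m1* over 25.5%, and the strand setting of the counting was not given in the sources used here.

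Most markers of the vessel wall were lower in the mutant groups, as were several members. Of 7 endothelial markers 6 were lower in Mtm1-/y against WT (median log2 fold change -0.78), where 14.9% of all tested genes were called lower. In Mtm1-/y + TAM against WT + TAM 5 were lower (median -0.84), against 9.46% of all tested genes. The 7 endothelial markers summed to 564 to 682 CPM in WT, 406 to 683 CPM in WT + TAM, 324 to 386 CPM in Mtm1-/y and 287 to 374 CPM in Mtm1-/y + TAM. No marker of the list was at 0 in any library. *Lama4* (-1.41), *Itga6* (-1.40), *Itga1* (-1.07) and *Nid2* (-1.03) fell in Mtm1-/y against WT, while *Lama5* (0.18) and *Hspg2* (-0.27) were not called. Within Mtm1-/y, replicate 1, which is among the libraries that stand apart, had the highest endothelial sum (386 CPM). It had the lowest *Lama4* (7.98 CPM), *Itga6* (17.5 CPM) and *Nid2* (10.3 CPM) of that group, while *Itga1* was lowest in replicate 3 (17.4 CPM). Of 6 markers of pericytes and smooth muscle 3 were lower and 1 higher in the untreated comparison, and 5 lower and 1 higher in the treated one, with summed levels of 571 to 711 CPM in WT and, in Mtm1-/y, 367 to 480 CPM. Of 3 satellite cell markers 2 were lower in both, with a summed level of 7.18 to 10.4 CPM in WT and, in Mtm1-/y, 1.7 to 3.56 CPM. In bulk tissue, fewer cells of a type and less RNA per cell cannot be told apart, and the part of these cell types in the members' values was not tested. Among the other marker lists, 1 of 6 fibroblast, 2 of 5 Schwann cell and 1 of 5 macrophage markers were higher in Mtm1-/y against WT, 1 muscle fibre marker was higher and 2 were lower, and 0 of 4 adipocyte and 0 of 3 blood markers were called by edgeR. In that comparison 15.5% of all tested genes were called higher and 14.9% lower.

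**Figure D4:**
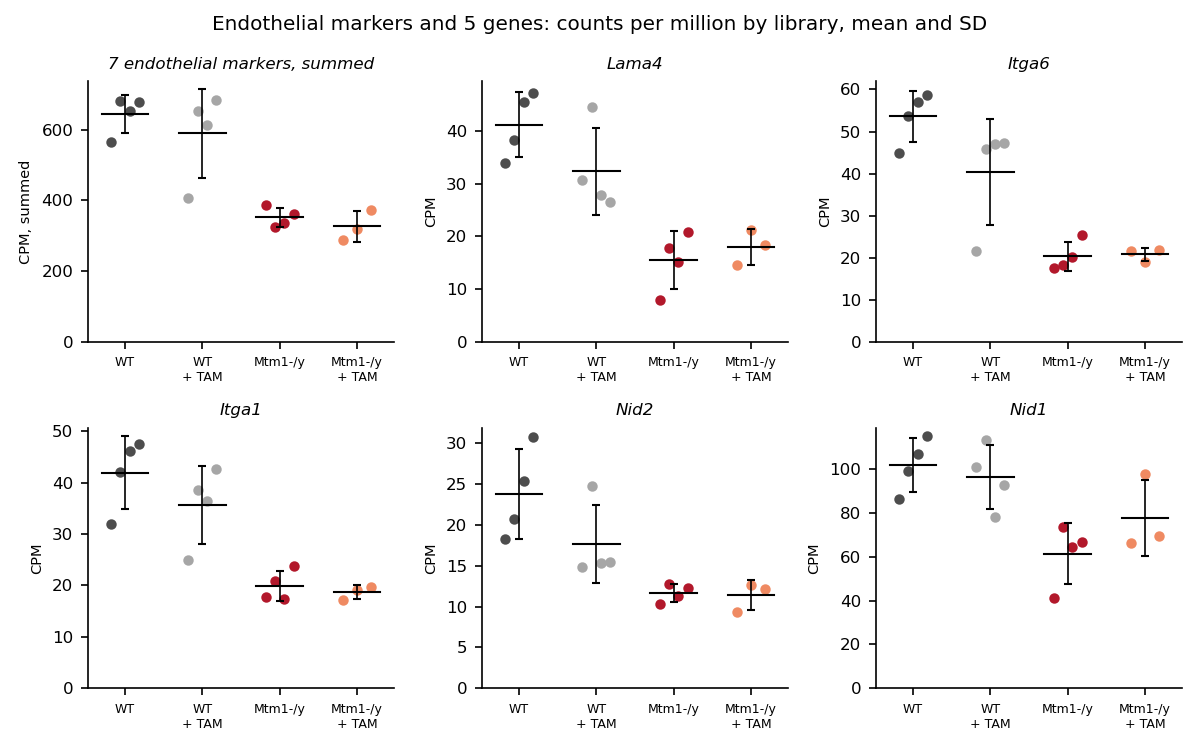
Summed CPM of 7 endothelial markers and CPM of 5 members in each library (points), with the group mean (line) and SD (bar). The endothelial sum of every mutant library (287 to 386 CPM) lies below every WT and WT + TAM library (406 to 683 CPM), as does *Itga1* (17.1 to 23.7 CPM against 25 to 47.6 CPM).

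Genes around the set were counted in the same way. Of 24 other basement membrane genes and integrin ligands 2 rose and 5 fell in Mtm1-/y against WT (29.2% called, against 30.4% of all tested genes), with a median log2 fold change of -0.16. *Frem2*, a basement membrane protein gene, rose (2.37 ± 0.44, adjusted p = 0.00143). *Papln* (-2.80 ± 0.37), *Efemp1* (-1.76 ± 0.30), *Egflam* (-0.97 ± 0.24), *Vtn*, which encodes vitronectin (-0.86 ± 0.19), and *Fbln5* (-0.37 ± 0.12) fell. Of 29 other adhesion adaptors tested 9 rose and 7 fell (55.2% called), with a median of 0.29. *Flnc*, the filamin of muscle, was higher (0.81 ± 0.27, adjusted p = 0.0314) and *Flna*, a widely expressed filamin, was lower (-0.50 ± 0.12, adjusted p = 0.00566). *Cd151*, a tetraspanin partner of laminin-binding integrins, rose in both comparisons (0.58 ± 0.14, adjusted p = 0.00583, and 0.52 ± 0.15, adjusted p = 0.0229). Of 9 genes tested in a list of leukocyte and platelet integrins and their adaptors, 2 rose (22.2%), the integrin *Itgb2* (1.14 ± 0.36) and the adaptor *Parvg* (1.30 ± 0.33), which encodes gamma-parvin. In the treated comparison these lists had 2 higher and 4 lower, 4 higher and 6 lower, and 0 higher and 0 lower, which are 25%, 34.5% and 0% of their tested genes, against 20.1% of all tested genes.

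The response of the set to tamoxifen was asked in each genotype. In WT + TAM against WT 0 members were called with edgeR, where 0.309% of all tested genes were called. An unadjusted p under 0.05 was found for 1757 of the 15533 tested genes and for 5 of the 37 members. The members' log2 fold changes ranged from -1.40 to 0.84, with a median of 0.00. The smallest p belonged to *Itgb6*, a partner of the alpha V chain, and to *Itga4*, the fibronectin receptor chain best known from leukocytes, and neither was called. *Itgb6* had 32.1, 27.9, 26.8 and 23.9 CPM in WT and 18.4, 9.12, 7.96 and 16.9 CPM in WT + TAM (-1.08 ± 0.32, adjusted p = 0.213). *Itga4* had 29.6, 18.4, 15.3 and 16.9 CPM in WT and 2.41, 11.3, 10.1 and 6.56 CPM in WT + TAM (-1.40 ± 0.44, adjusted p = 0.24). In both genes every WT + TAM library lay below every WT library. *Itga11* went the other way, at 2.17 to 4.38 CPM in WT and 4.58 to 11.3 CPM in WT + TAM, and was not called (adjusted p = 0.448). The share of all tested genes without overlap was not counted for the tamoxifen comparisons. DESeq2 called *Itgb6* and *Itga4* (adjusted p = 0.0373 and 0.0346) and limma-voom called 0 members. Over all 15533 tested genes DESeq2 called 184 higher and 114 lower, and limma-voom 21 higher and 18 lower. Without both libraries that stand apart, edgeR called *Itgb6* (-1.29 ± 0.23, adjusted p = 0.013). In that fit 205 of all 15359 tested genes were called higher and 142 lower.

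In Mtm1-/y + TAM against Mtm1-/y 0 members were called with edgeR, DESeq2 or limma-voom, where 0.0129% of all genes were called with edgeR. An unadjusted p under 0.05 was found for 861 of the 15533 tested genes and for 2 of the 37 members. The members' log2 fold changes ranged from -0.33 to 1.12, with a median of -0.02. *Lamc3* (1.12 ± 0.46) and *Lamb2* (-0.28 ± 0.12), whose libraries are given above, had the smallest p, each with an adjusted p of 0.855. All 3 *Lamb2* levels of Mtm1-/y + TAM (278 to 331 CPM) lay below the 4 of Mtm1-/y (336 to 421 CPM), while the *Lamc3* levels overlapped. The untreated and treated mutant means were 23.5 ± 3.79 and 26.4 ± 6.94 CPM for *Itga9*, 210 ± 10.8 and 196 ± 16.9 CPM for *Itga7*, and 409 ± 88.9 and 409 ± 48.8 CPM for *Itgb1* (SD, n = 4 and 3).

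**Figure D5:**
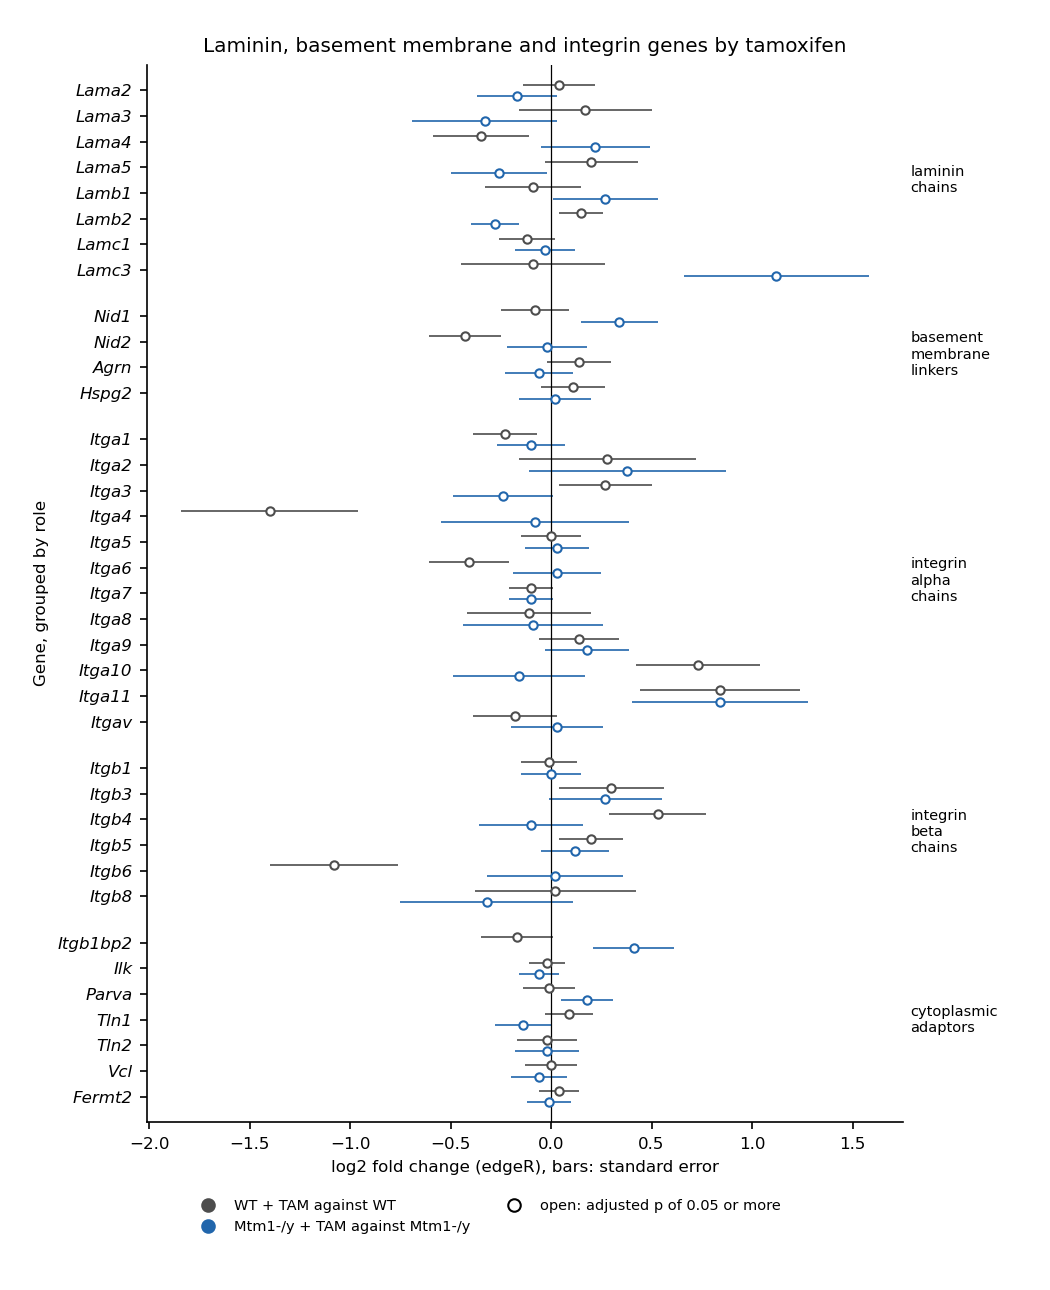
Log2 fold change of the 37 tested members, by role, for WT + TAM against WT (dark grey) and Mtm1-/y + TAM against Mtm1-/y (blue), with standard errors as bars. All points are open, since 0 members were called, and the values span -1.40 to 1.12.

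Whether the effect of genotype differed with tamoxifen was tested as an interaction. None of the members passed with edgeR, DESeq2 or limma-voom, and 0% of all tested genes were called with edgeR. An unadjusted p under 0.05 was found for 1650 of the 15533 tested genes and for 3 of the 37 members. The smallest p belonged to *Lamb2* (-0.43 ± 0.17, adjusted p = 0.414) and *Itgb6* (1.1 ± 0.47, adjusted p = 0.445), whose levels in Mtm1-/y were 8.92, 29.3, 19.5 and 25.3 CPM and in Mtm1-/y + TAM 21.6, 21.7 and 19.6 CPM. The 7 members called in the untreated comparison alone (*Lamb1*, *Lamb2*, *Lamc1*, *Nid1*, *Itga5*, *Parva* and *Tln1*) and the 2 called in the treated comparison alone (*Agrn* and *Itgb1bp2*) are therefore not shown to differ between them.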

How the data were processed

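The deposited table holds raw counts of reads per Ensembl gene, made by the authors, with 1 column per mouse. Tools in the submitters' processing notes were STAR 2.5.3a, Bowtie2 2.2.8, HTSeq 0.6.1p1 and cutadapt 1.10, with the builds GRCm38 and mm10, and no roles. Annotation release, strand setting and read filters were not given in the sources used here, and the libraries were prepared with a stranded mRNA kit. Groups came from the labels. All 30672 identifiers matched GENCODE M21 for GRCm38, from which symbols and union exon lengths were taken.

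In R 4.3.3 the package edgeR 4.0.16 was used: low genes were removed by filterByExpr (minimum count 10), libraries scaled by TMM, and a robust quasi-likelihood model with 4 group means fitted to 15 libraries (11 residual degrees of freedom). p-values were adjusted by Benjamini-Hochberg over 15533 genes and called under 0.05. They measure the spread between mice. CPM values use the TMM factors. Shares used counts per kb and were not tested. The script was first tested on simulated data.

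The members, lists and tests were chosen with earlier results of these data known. Values per library are given for *Lama2*, *Lamb2*, *Lamc1*, *Itga7* and *Itgb1*, for the 6 highest and 6 lowest called in Mtm1-/y against WT, and for the 2 smallest p of each tamoxifen contrast and the interaction, where none was called. Members called in 1 genotype comparison are given with both values. Alternatives were RLE, upper-quartile or no factors, no filter, a minimum count of 50, DESeq2 1.42.0, limma-voom 3.58.1, no robust step, a replicate block, only the groups compared, an added fold threshold, and leaving libraries out. Some genes of the surrounding lists are counted but not reported by name here.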

Additional observations from a re-analysis of the deposited data

Results flagged for a closer look

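In 111 groups of 4 libraries (37 members in WT, WT + TAM and Mtm1-/y), Dixon's test set 9 member values, from 5 libraries, apart from the others of their group, and chance flags about 5% of such groups. In WT + TAM replicate 1 stood apart for *Itga6* (21.5 CPM, others 45.8 to 47.3), *Itga11* (11.3 CPM, others 4.58 to 4.87) and *Tln1* (156 CPM, others 232 to 239). The same library had 406 CPM of summed endothelial markers (others of its group 614 to 683), 2000 CPM of fibroblast markers (others 385 to 850), 174 CPM of Schwann cell markers (others 62.1 to 113) and 37.2 CPM of adipocyte markers (others 0.229 to 3.47), and their part in these values was not tested. Replicate 2 of the same group stood apart for *Nid2* (24.8 CPM, others 14.9 to 15.5) and *Vcl* (201 CPM, others 184 to 185). Mtm1-/y replicate 1 stood apart for *Lama5* (134 CPM, others 59 to 69.6) and *Itga3* (11.2 CPM, others 5.77 to 5.85), and Mtm1-/y replicate 4 for *Itgb8* (0.851 CPM, others 0.508 to 0.565). In WT, replicate 3 stood apart for *Ilk* (47.9 CPM, others 39.8 to 40.2). No member's interaction was called.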

How the results depend on the processing

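Over all 37 members tested and all contrasts, 120 of 4763 values under the alternatives lost the call and 47 gained it, 8 each of *Itga5* and *Itga8*, 7 of *Lama2*, 5 of *Lama3* and 4 of *Itga3* among them, and 0 called values changed direction. The 4763 values include members and contrasts not called in the main fit, which cannot lose a call. Of the 19 calls in Mtm1-/y against WT, 11 held without each library in turn. Of the 14 calls in Mtm1-/y + TAM against WT + TAM, 6 did. In Mtm1-/y against WT 19 members were called. That count was 13 to 21 with a library left out, 18 with the replicate block (*Tln1* lost the call, adjusted p = 0.0534) and 6 with an absolute log2 fold change over 1 added, where the threshold itself takes members out. Over all tested genes 1882 to 2580 were called higher and 1811 to 2549 lower with a library left out. In Mtm1-/y + TAM against WT + TAM 14 were called. That count was 8 to 17 with a library left out, and it was 9, 8 and 8 without Mtm1-/y + TAM replicates 1, 2 and 3, which leave 2 libraries in the group. It was 12 with the block (*Agrn*, adjusted p = 0.0768, and *Itgb5*, adjusted p = 0.064, lost it) and 2 with the fold threshold. Over all tested genes 949 to 2133 were called higher and 707 to 1964 lower in this comparison with a library left out. For the fold threshold the counts over all genes are not given here. In WT + TAM against WT the count was 2 with DESeq2 and 1 without both libraries that stand apart, and 0 with the block and with each library left out in turn. Over all tested genes DESeq2 called 184 higher and 114 lower there, and edgeR without both libraries 205 higher and 142 lower. In Mtm1-/y + TAM against Mtm1-/y and in the interaction the count of members was 0 under every alternative run. A fit with only the groups compared was not run for the interaction, which needs all 4. Of 171 per-length shares under another length or without a library, 29 moved by more than an SD, all with the longest transcript as the length (shares of *Lama2*, *Lama4*, *Lama5*, *Lamb2*, *Itga6*, *Itga7*, *Itga9* and *Itgav*).

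Replicate numbers are shared by the groups, but they did not pair the mice: over 21 pairs with the same number the correlation of deviations was -0.113 to 0.306, 6 were over 0.1, and 5 of 15 libraries correlated best with their own number. Counts of the lowest members limit what can be seen: a true level of 3 counts, or 0.0655 to 0.1663 CPM, can give 0 in a library, by counting error alone.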
